A study of Mus musculus with 4 samples.

Results

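A set of 30 genes of the oocyte was examined in the chromatin of mouse granulosa cells, the somatic cells that surround and feed the oocyte. The genes encode growth factors, zona pellucida proteins, proteins of the subcortical maternal complex, germ cell transcription factors and regulators of meiosis. A gene counted as having a loop if 1 of its 2 annotated ends (build mm10) lay within 2.5 kb of an anchor of a called chromatin loop. By this rule 13 of the 30 genes had a loop in at least 1 of 4 libraries. Over all 21631 protein-coding genes placed on chromosomes 9139 had one, or 42.2%, against 43.3% of the 30 oocyte genes. The share in this list was thus close to that of genes in general, whereas 26.0% of 50 further oocyte genes had a loop.

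The loops were mapped by Micro-C, which cuts crosslinked chromatin with micrococcal nuclease and sequences the joined fragments. All mice were 21 days old and had been primed with eCG, the equine gonadotropin also known as PMSG, at 5 IU, for 46 h in the sample characteristics and 44 h in the protocol. The hCG group then received 5 IU of human chorionic gonadotropin (hCG), a substitute for the ovulatory surge of luteinizing hormone, and was collected 6 h later (replicates 1 and 2). The PMSG group was collected at 0 h with no hCG (replicates 1 and 2). Cells were released by puncturing the ovaries, and the labels do not say whether oocytes were taken out, whether mice were pooled or whether the 2 libraries of a group came from different mice. The spread between libraries may therefore be partly technical. No RNA was measured, so the labelled cell type could not be checked against its markers. A loop held by few of the cells and a loop that is weak in all of them cannot be told apart in such bulk libraries.

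The oocyte and its granulosa cells depend on each other. GDF9 and BMP15 from the oocyte act on granulosa cells, and KIT on the oocyte answers to KIT ligand from granulosa cells. The oocyte also builds the zona pellucida, its glycoprotein coat, and stores maternal proteins that the embryo needs after fertilization. Most of these genes are known for expression in germ cells, whereas Kitl is a granulosa gene, so the list is not uniformly one of genes silent in granulosa cells.

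The 4 lists held 7664 and 7935 loops in the hCG libraries and 8305 and 6533 in the PMSG libraries. The contacts at called pixels summed to between 272470 and 393852 per library. Matching loops between libraries when both anchor midpoints lay within 20 kb gave 12942 distinct loops. Each value below is the contact count of a called pixel, set against the count expected from its surroundings (the donut neighbourhood of the loop caller). A loop that is missing from a list did not pass the caller's thresholds there, and its contacts there were not analysed here.

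In 4 of the genes the annotated start site lay inside a loop anchor in at least 2 libraries and in bins of 5 or 10 kb. They are Zp3, Tle6, Dazl and Kit, and they are shown because their loops carry the results that follow. The sequences are those of RefSeq (GRCm38.p6, the assembly of mm10), 5′ to 3′ on the gene's strand, from 250 bases before to 50 after the start site. Capitals mark each E-box (CANNTG, which reads the same on both strands), the element bound by basic helix-loop-helix factors such as FIGLA, which is known to act on zona pellucida genes.
Zp3, chr5:135979855-135980154, plus strand: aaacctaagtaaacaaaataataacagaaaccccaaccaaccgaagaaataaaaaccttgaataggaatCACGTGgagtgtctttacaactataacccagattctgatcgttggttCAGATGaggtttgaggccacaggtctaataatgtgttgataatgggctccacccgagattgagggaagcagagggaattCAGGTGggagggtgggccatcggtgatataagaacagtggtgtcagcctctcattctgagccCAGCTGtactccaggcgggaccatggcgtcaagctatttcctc
Tle6, chr10:81600851-81601150, minus strand: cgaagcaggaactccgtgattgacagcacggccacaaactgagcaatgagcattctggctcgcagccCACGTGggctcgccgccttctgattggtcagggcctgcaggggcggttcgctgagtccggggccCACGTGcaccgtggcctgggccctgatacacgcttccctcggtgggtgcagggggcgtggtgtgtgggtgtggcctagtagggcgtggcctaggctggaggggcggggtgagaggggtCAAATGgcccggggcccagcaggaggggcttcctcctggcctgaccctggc
Dazl, chr17:50293571-50293870, minus strand: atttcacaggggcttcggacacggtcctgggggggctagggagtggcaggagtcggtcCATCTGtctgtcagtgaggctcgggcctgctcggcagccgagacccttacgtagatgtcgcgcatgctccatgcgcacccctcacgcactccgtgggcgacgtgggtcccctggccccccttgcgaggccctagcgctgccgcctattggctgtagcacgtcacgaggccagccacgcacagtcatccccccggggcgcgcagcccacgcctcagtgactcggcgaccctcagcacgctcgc
Kit, chr5:75574737-75575036, plus strand: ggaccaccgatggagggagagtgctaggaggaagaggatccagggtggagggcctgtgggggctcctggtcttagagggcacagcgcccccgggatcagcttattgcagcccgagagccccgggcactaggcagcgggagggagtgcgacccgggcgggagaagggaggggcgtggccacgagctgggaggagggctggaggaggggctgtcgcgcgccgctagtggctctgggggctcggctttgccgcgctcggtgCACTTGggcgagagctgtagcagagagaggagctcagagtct
Zp3 held 4 E-boxes, Tle6 held 3, and Dazl and Kit held 1 each. The palindromic form CACGTG was present 1 time in Zp3 and 2 times in Tle6. An E-box was present in 69.0% of 21037 promoters of protein-coding genes of the same length, so most promoters hold one. None of the 4 held the element TAATTA, or its variant with a final G, known from the homeobox factor NOBOX (both strands, 10.7% of all promoters). The core of the CTCF motif, searched on both strands in 4 spellings, was in none of them and in 1.02% of all promoters. The windows of Tle6, Dazl and Kit lie wholly inside such an anchor. The Zp3 anchor begins at 135980001, within the window, so that the start site and the 2 E-boxes nearest to it lie in the anchor and the other 2, CACGTG among them, lie outside it.

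The first comparison asked how many oocyte genes had a loop with and without hCG. In the hCG libraries 7 and 6 of the 30 genes had a loop, and in the PMSG libraries 8 and 8. The groups did not overlap, at 6.5 ± 0.707 genes in hCG and 8 ± 0 in PMSG (SD, n = 2 each). The exact permutation test over libraries (two-sided) gave p = 0.333, the smallest that 2 against 2 can give. Of all protein-coding genes 26.6% and 27.0% had a loop in the hCG libraries and 27.2% and 21.7% in the PMSG libraries, against 23.3% and 20% of the oocyte genes in hCG and 26.7% in each PMSG library. When a gene had to be reached in 2 libraries of the same loop, 8 genes remained in place of 13 and the difference between the groups was 0. Over all protein-coding genes 5514 then remained in place of 9139. The difference of -1.5 genes was -0.5 with a limit of 10 kb or with any part of the gene counted (exact permutation p = 1 each), and -3 at FDR 0.01 and with lists of equal length.

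**Figure D1:**
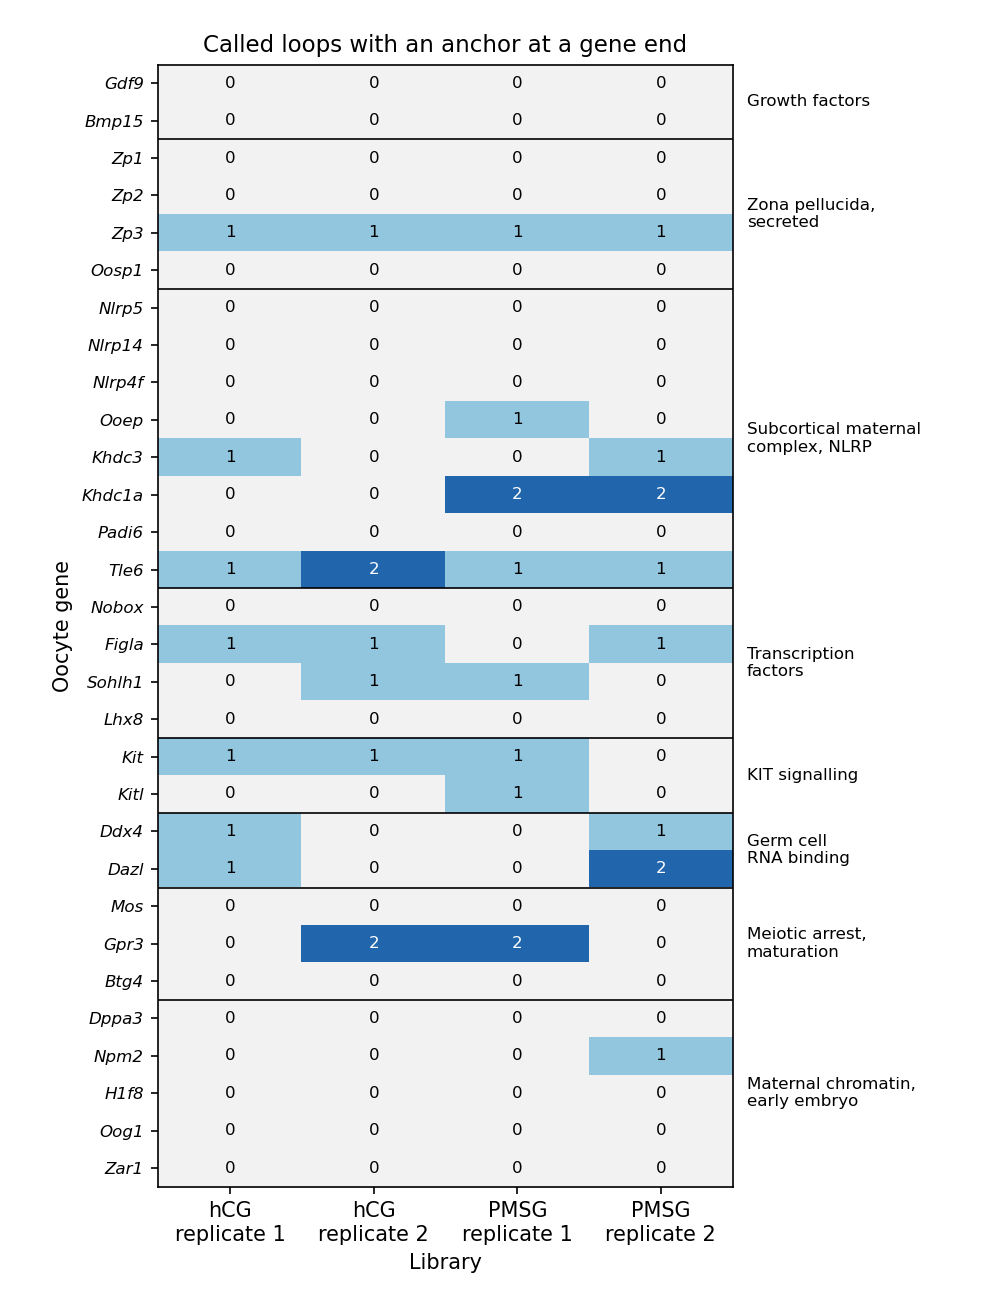
Number of called loops with an anchor at an end of each oocyte gene (rows, grouped by role) in the hCG and PMSG libraries (columns). Zp3 and Tle6 are the 2 genes with a loop in every library, and Khdc1a has 2 loops in each PMSG library and 0 in each hCG library. Of oocyte genes with a loop 15.4% had one in every library, against 27.3% of all protein-coding genes with a loop.

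The 13 genes had 35 loop calls, which formed 19 distinct loops. By number of libraries, 8 of these loops had calls in 4, then 4 loops in 3, 2 loops in 2 and 5 loops in 1. No oocyte gene was at an hCG-only loop, meaning a loop on both hCG lists that is absent from the PMSG lists, whereas 8.31% of the 9139 genes with a loop were. One gene, Khdc1a, was at PMSG-only loops, 1 of 13 or 7.69%, against 5.46% of genes with a loop. Loops of all 4 libraries were found at 7 of the 13 genes, against 41.7% of genes with a loop. With 13 genes, each of these counts is near what the share over all genes would give, and the list was not tested. The counts also moved when a library was left out, since a class then rests on fewer lists. Genes at hCG-only loops numbered 1 without hCG replicate 1 (Tle6) and 2 without PMSG replicate 1 (Kit and Sohlh1). Genes at PMSG-only loops numbered 2 without hCG replicate 2 (Gpr3 and Khdc1a), 3 without PMSG replicate 1 (Dazl, Khdc1a and Npm2) and 3 without PMSG replicate 2 (Khdc1a, Ooep and Sohlh1). The share over all genes with a loop then ran from 11.4% to 25.9% for hCG-only and from 10.2% to 25.1% for PMSG-only loops.

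Among the zona pellucida and secreted proteins, Zp3 was the only 1 of 4 genes with a loop, and Zp1, Zp2 and Oosp1 had none in any library. Zp3 encodes the coat glycoprotein that takes part in sperm binding and lies on chromosome 5 (135980105 to 135988624). Its start was an anchor in every library. The loop ran to chr5:136055001-136060000 in hCG replicate 1, to chr5:136060001-136065000 in hCG replicate 2, to chr5:136055001-136060000 in PMSG replicate 1 and to chr5:136040001-136050000 in PMSG replicate 2, a span of 60 to 80 kb that ended at the uroplakin genes Upk3b and Upk3bl. Contacts numbered 15 and 27 in the hCG libraries, against 2.77 and 3.53 expected, and 27 and 27 in the PMSG libraries, against 5.44 and 8.74 expected. The ratios of 5.42 and 7.65 in hCG lay above those of 4.97 and 3.09 in PMSG, with means of 6.53 ± 1.58 and 4.03 ± 1.33 (SD, n = 2 each). The call of PMSG replicate 2 came from 10 kb bins and the other 3 from 5 kb bins. In the fit that allowed mixed bin sizes the log2 fold change, hCG over PMSG, was 0.77 ± 0.35 (SE; edgeR quasi-likelihood test, adjusted p = 0.536 over 3859 loops), so the difference did not pass the test. The Zp3 loop was not in all 4 libraries when anchors had to match within 10 kb or overlap, or with stricter or shorter lists.

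In the group of subcortical maternal complex, NLRP and related genes, 4 of 8 genes had a loop. Tle6, a member of the complex related to Groucho corepressors, had the most constant one. Its start lay in the same 5 kb anchor, chr10:81600001-81605000, in all 4 libraries, and the partner was chr10:81565001-81570000 at the end of Tle5, another gene of the Groucho family, 35 kb away. The hCG libraries had 17 and 19 contacts, against 3.22 and 4.47 expected, and the PMSG libraries had 40 and 23, against 8.29 and 2.59 expected. The ratios were 5.28 and 4.25 in hCG and 4.83 and 8.88 in PMSG, so the groups overlapped. This loop was called in all 4 libraries under each matching rule and list tried. A second Tle6 loop, of 100 kb, was called in hCG replicate 2 only, at 14 contacts where 1.87 were expected.

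The strength of a loop was tested where its 4 calls shared a bin size. This held for 1366 loops and for 2 of the 8 constant loops at oocyte genes, those of Tle6 and Dazl. Loops missing from any list were not tested, so the test could not see a loop lost in 1 group. Each count came from the library's own called pixel, and 434 of the loops, with 0 called, had identical pixels in all 4 libraries. Of all loops tested 0% were called at an adjusted p under 0.05 by edgeR's quasi-likelihood test, 93 loops had an unadjusted p under 0.05, and DESeq2 called 0 with 5 unadjusted. The log2 fold change at Tle6, hCG over PMSG, was -0.31 ± 0.31 (SE; edgeR, adjusted p = 0.902). The median over all loops was 0.15, and with TMM factors that bring the median to 0.00 the Tle6 value was -0.49 (edgeR, adjusted p = 0.999). Without PMSG replicate 1 it was -0.92 (edgeR, adjusted p = 0.999), and without PMSG replicate 2 it was -0.04 (edgeR, adjusted p = 0.972). Adjusted p over all alternatives ran from 0.814 to 0.999.

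Khdc1a is an oocyte gene of the KH-domain family on chromosome 1 (21349677 to 21352199). With matching within 20 kb and the full lists it was the only oocyte gene at loops of both libraries of 1 group alone. Both PMSG libraries had a loop of 125 kb from the gene to chr1:21200001-21225000 inside Tmem14a, at 130 and 75 contacts where 42.5 and 24.98 were expected, at ratios of 3.06 and 3.00. Both also had a loop of 70 kb from the gene to chr1:21270001-21280000, at 31 and 25 contacts where 10.2 and 5.86 were expected, at ratios of 3.03 and 4.27. Neither was called in an hCG library, where the nearest anchor of any loop lay 57.8 kb (replicate 1) and 52.8 kb (replicate 2) from the gene. The neighbouring anchors differed as well. The hCG libraries joined chr1:21205001-21210000 to chr1:21285001-21290000 over 80 kb, at 16 and 24 contacts where 3.36 and 3.84 were expected. The PMSG libraries joined chr1:21215001-21220000 to chr1:21270001-21275000 over 55 kb, at 35 and 22 contacts where 4.80 and 4.01 were expected. Matching within 20 kb counted these as 1 loop of all 4 libraries, although both anchors lay in other bins. One more PMSG-only loop, of 50 kb, began at an end of Tmem14a, and the loop of 225 kb from Paqr8 to Tmem14a was called at the same pixel in all 4 libraries.

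**Figure D2:**
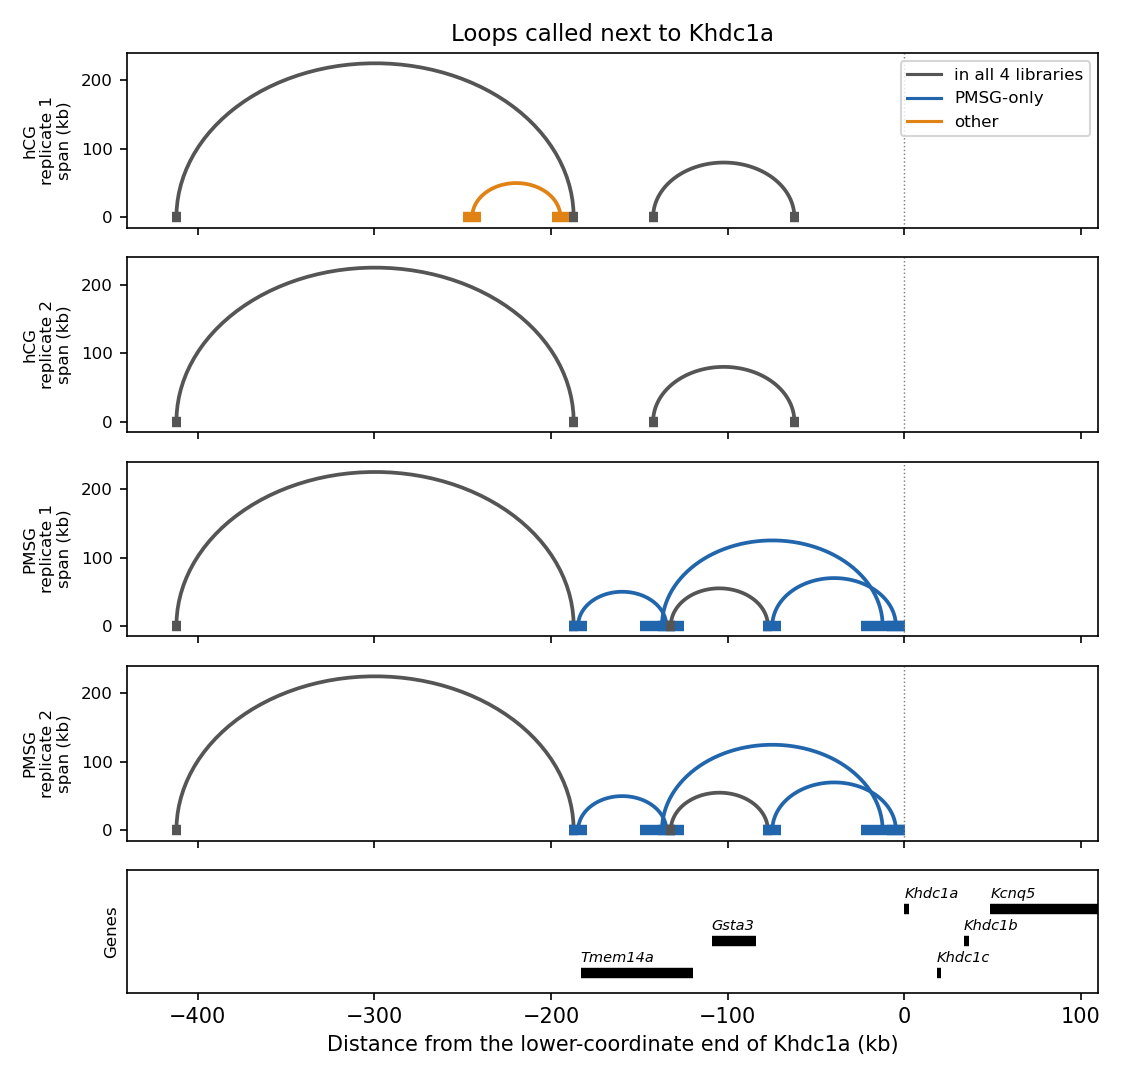
Loops called next to Khdc1a in the hCG libraries (upper 2 panels) and the PMSG libraries (lower 2 panels). Arcs join anchor midpoints, their height is the span in kb, thick bars are the anchors, and the lowest panel shows genes with distance in kb from the lower-coordinate end of Khdc1a. The PMSG libraries have 2 arcs that reach Khdc1a, of 70 and 125 kb, and the hCG libraries have none.

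The loop of 70 kb stayed PMSG-only under every other matching rule and list. The loop of 125 kb did so too, except that with matching within 50 kb it joined the loops of all 4 libraries. Khdc1a was the only protein-coding gene with an end at these anchors. Both loops were on the list of PMSG replicate 2, which with 6533 loops was shorter than either hCG list. The contacts at these pixels in the hCG libraries were not analysed here, so the loops could not be tested.

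The other looped genes of this group were reached less often. Khdc3, which encodes the FILIA protein of the complex, had 2 loops that were called in all 4 libraries, but each reached the gene in 1 library only. The loop of 45 to 50 kb had 42 and 20 contacts in the hCG libraries, against 11.7 and 4.14 expected, and 28 and 23 in the PMSG libraries, against 5.72 and 3.40 expected. The loop of 115 to 125 kb had 15 and 15 contacts in the hCG libraries, against 2.02 and 2.86 expected. The PMSG libraries had 21 and 23, against 3.56 and 5.15 expected. At FDR 0.01 and with lists of equal length this longer loop was PMSG-only. When anchors had to overlap it was not in all 4 libraries. In all 6 calls made in 5 kb bins the anchor lay 6381 bp or 11381 bp from Khdc3 and inside Rab27a. In the 10 kb calls it lay 1381 bp from Khdc3, so Khdc3 also had no loop when the gene end had to be inside the anchor. The partner anchor of the shorter loop lay at Pigb, Pigbos1 and the other end of Rab27a, and that of the longer loop at Dnaaf4 and Ccpg1os. Ooep, another gene of the complex, had a loop in PMSG replicate 1 only, at 92 contacts where 41.0 were expected, in a 25 kb bin that held an end of Dppa5a. Ooep itself lay 1903 bp outside that bin and had no loop when the gene end had to be inside the anchor. Nlrp5, Nlrp14, Nlrp4f and Padi6 had no loop.

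Of 4 transcription factor genes, Figla and Sohlh1 had loops, and Nobox and Lhx8 had none. Figla, a helix-loop-helix factor that is needed for primordial follicles, was joined over 170 to 175 kb to Nat8 in all 4 libraries. At FDR 0.01 and with lists of equal length this loop was no longer in all 4. The contacts were 63 and 84 in the hCG libraries, against 26.3 and 31.9 expected, and 12 and 81 in the PMSG libraries, against 1.49 and 30.8 expected. The calls of both hCG libraries and PMSG replicate 2 came from 25 kb bins that cover the whole gene. The call of PMSG replicate 1 came from a 5 kb bin, and its anchor lay 6494 bp outside Figla. Sohlh1, a second helix-loop-helix factor, had a loop of 70 to 85 kb towards Kcnt1 in both hCG libraries and PMSG replicate 1, with 17 and 20 contacts in hCG against 2.98 and 4.93 expected, and 61 in PMSG replicate 1 against 23.9 expected. Its anchor reached the gene in hCG replicate 2 alone and lay 2995 bp away in the other 2 libraries, just outside the 2.5 kb limit. A Sohlh1 loop of 300 kb was called in PMSG replicate 1.

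Both genes of KIT signalling had loops. Kit, the receptor tyrosine kinase of the oocyte, was joined from its start (chromosome 5, 75574987) to a site 250 to 280 kb downstream with no protein-coding gene. The loop had 22 contacts in hCG replicate 1, against 4.62 expected, 79 in hCG replicate 2, in a 25 kb bin with 38.1 expected, and 28 in PMSG replicate 1, against 7.30 expected. It was not called in PMSG replicate 2, which had the shortest list. Kitl, the ligand made by granulosa cells, had a loop of 125 to 150 kb in the same 3 libraries, with 30 and 136 contacts in the hCG libraries, against 9.08 and 54.9 expected, and 43 in PMSG replicate 1, against 12.8 expected. The anchor covered the start of Kitl in PMSG replicate 1. In the hCG libraries it lay inside the gene, 4386 and 9386 bp from the start. The ratios were 3.30 and 2.48 in hCG and 3.35 in PMSG replicate 1, and their counting intervals overlapped.

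The 2 germ cell RNA-binding genes both had loops of all 4 libraries. The Dazl loop lost this class when anchors had to overlap, and the Ddx4 loop lost it with matching within 10 kb. Dazl, which encodes a translational regulator of germ cells, was joined over 500 to 510 kb to a site inside Tbc1d5. It had 13 and 17 contacts in the hCG libraries, against 1.55 and 1.95 expected, and 16 and 13 in the PMSG libraries, against 2.04 and 1.76 expected. With ratios of 8.39 and 8.72 in hCG and 7.84 and 7.39 in PMSG, it was the most enriched of the constant loops at oocyte genes by its group means of 8.55 ± 0.229 and 7.61 ± 0.317 (SD, n = 2 each). The groups did not overlap, but the log2 fold change of 0.17 ± 0.29 (SE; edgeR, adjusted p = 0.953) did not pass the test, and 13 contacts allow a ratio between 4.47 and 14.3 in hCG replicate 1 (exact Poisson 95% interval, counting error only). All 4 anchors lay in Dazl, at its start in hCG replicate 1 and PMSG replicate 2 and 3620 bp into the gene in hCG replicate 2 and PMSG replicate 1. PMSG replicate 2 had a further loop of 350 kb, at 84 contacts where 29.0 were expected.

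Ddx4, the RNA helicase also known as VASA, was reached by calls in 25 kb bins and missed by calls in 10 kb bins. Its loop of 360 to 375 kb to Cdc20b and Gpx8 was called in all 4 libraries. In hCG replicate 1 and PMSG replicate 2 it came from 25 kb bins, with 71 and 66 contacts against 20.4 and 22.9 expected, and the bin held an end of Ddx4 and of Slc38a9. In hCG replicate 2 and PMSG replicate 1 it came from 10 kb bins, with 26 and 37 contacts against 5.41 and 6.70 expected, and the anchor lay inside Slc38a9, 17368 bp from Ddx4.

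Of 3 genes of meiotic arrest and maturation, Gpr3 had loops and Mos and Btg4 had none. Gpr3, the receptor that keeps cyclic AMP high in the arrested oocyte, lay next to a loop of 60 to 80 kb to Wdtc1 that was called in all 4 libraries. It had 17 and 20 contacts in the hCG libraries, against 3.46 and 3.76 expected, and 34 and 27 in the PMSG libraries, against 6.85 and 9.23 expected. The anchor came within 2465 bp of Gpr3 in hCG replicate 2 and PMSG replicate 1, just inside the 2.5 kb limit. There it also lay within 2.5 kb of Cd164l2. The anchor lay 17465 bp away in the other 2 libraries, at an end of Map3k6 in PMSG replicate 2. When the gene end had to be inside the anchor, this loop did not reach Gpr3. The loop was not in all 4 libraries when anchors had to match within 10 kb or overlap, or with stricter or shorter lists. A second loop, to Ahdc1, had ratios of 2.08 in hCG replicate 2 and 2.22 in each PMSG library, but in PMSG replicate 2 its anchor lay 9340 bp from Gpr3, at Wasf2, and did not reach the gene. Of the 5 genes of maternal chromatin and the early embryo, only Npm2, the nucleoplasmin of the egg, had a loop. It was called in PMSG replicate 2 in a 25 kb bin with 67 contacts against 30.9 expected, together with ends of Dmtn and Fgf17.

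**Figure D3:**
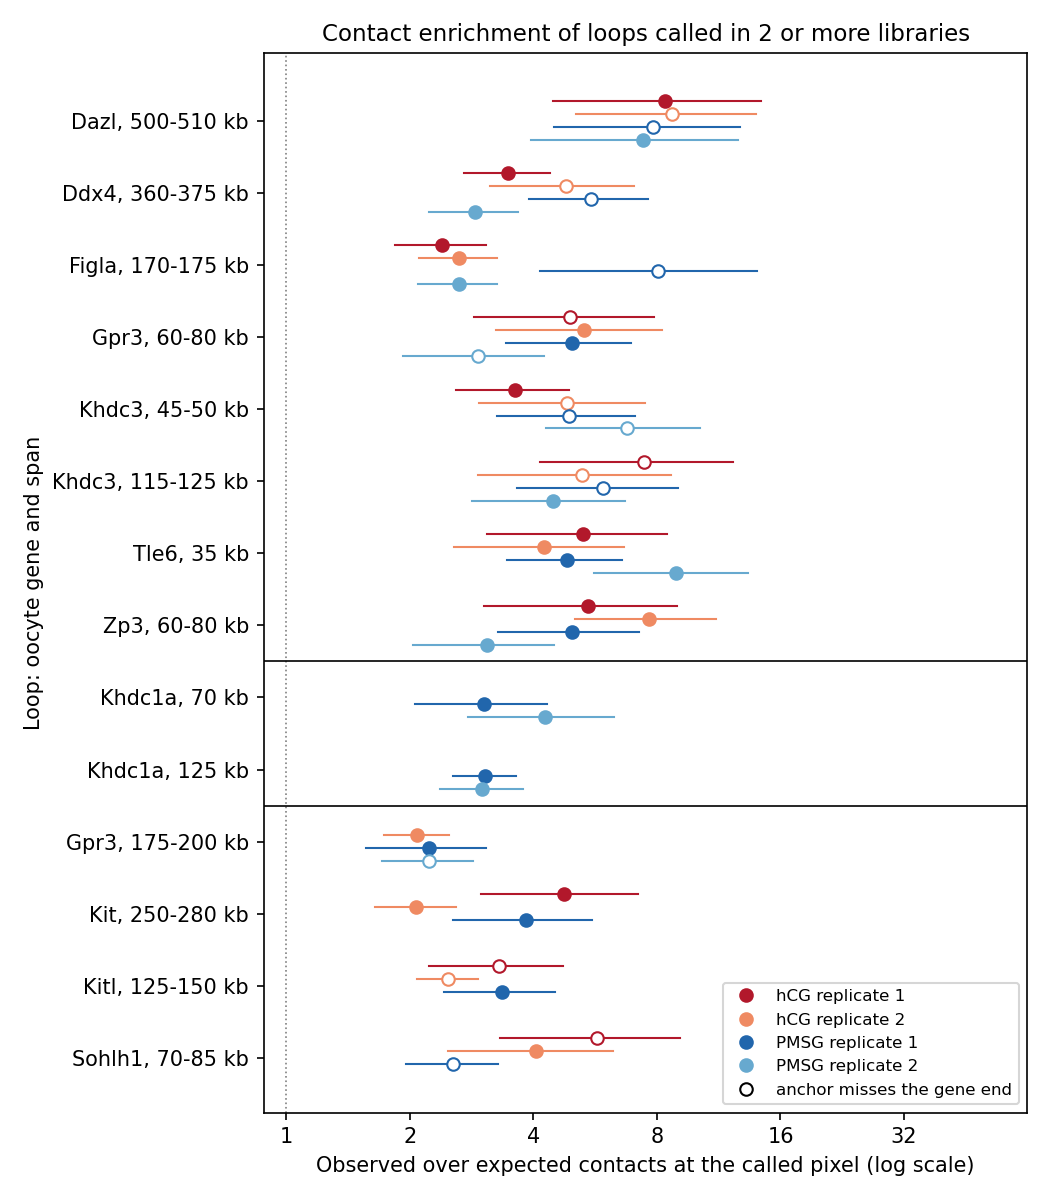
Observed over expected contacts (log2-spaced axis, bars are exact Poisson 95% intervals of the count) for the loops at oocyte genes called in 2 or more libraries, with hCG above PMSG in each row. Lines separate loops of all 4 libraries, PMSG-only loops and the rest, and open circles are calls whose anchor misses the gene end. Of the loops of all 4 libraries, those of Tle6 and Zp3 have a filled circle in every library.

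Across the 8 constant loops the mean ratio was higher in hCG for 4 and higher in PMSG for 4, so no common direction was seen. Only 2 of these loops had calls that shared a bin size, so most of these means compare unlike bins. At Zp3, higher in hCG, the call of PMSG replicate 2 came from 10 kb bins. At Figla, higher in PMSG, the call of PMSG replicate 1 came from a 5 kb bin. Taking all calls at oocyte genes instead, the median ratio was 4.76 and 4.15 in the hCG libraries (7 and 8 calls) and 3.2 and 3.04 in the PMSG libraries (10 and 10 calls), a difference of 1.33. Over all loops at gene ends the medians were 3.63 and 3.55 in hCG and 3.34 and 3.72 in PMSG. The calls compared are not the same loops in each library, and 25 kb bins made up 2 and 3 calls in the hCG libraries and 3 and 5 in the PMSG libraries. The part of the bins in the difference was not tested. The median span of the calls was 175 and 90 kb in the hCG libraries and 137.5 and 122.5 kb in the PMSG libraries, and the groups overlapped. For all loops at gene ends it was 130 and 145 kb in hCG and 160 and 170 kb in PMSG.

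The 17 oocyte genes without a loop were at very different distances from the nearest anchor of any library, from 3.67 kb at Nobox to 1158 kb at Nlrp5, with a median of 31.3 kb. Nobox, a homeobox factor of early follicles, lay 3.67 kb from an anchor of PMSG replicate 2 and 8.67 kb from one of hCG replicate 1. Zp1, whose product cross-links the filaments of the zona pellucida, lay 4.30 kb from an anchor in PMSG replicate 1. Btg4, which acts in the decay of maternal mRNA, lay 5.08 kb from an anchor in both hCG libraries and in PMSG replicate 2. With a limit of 10 kb in place of 2.5 kb these 3 genes also counted. That gave 16 of 30, beside 11623 of all 21631 protein-coding genes at the same limit. The next nearest oocyte gene, Nlrp14, lay 11.9 kb from an anchor in PMSG replicate 1.

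The growth factor genes, through which the oocyte acts on granulosa cells, were both without a loop. Gdf9 lay 12.1 kb from the nearest anchor in both hCG libraries and PMSG replicate 2. Bmp15, on chromosome X, lay 39.1 kb from the nearest anchor in each of the 4 libraries and was enclosed by 1 loop in each. Of the 17 genes, 8 lay inside at least 1 loop in every library and 9 inside none in any library. The first kind included Zp1, Zp2, Lhx8, H1f8 and Zar1, and the second Gdf9, Nlrp5, Nlrp4f, Nobox, Mos, Dppa3 and Oog1. Nlrp4f and Oog1 lay 252 and 253 kb from any anchor.

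The genes with and without a loop differed in the median of a promoter feature that the rule had not used. A promoter entry was found for 22 of the 30 genes, 11 with and 11 without a loop. The others were Gdf9, Zp1, Zp2, Nlrp14, Khdc1a, Dppa3, Npm2 and Mos. The number of CpG dinucleotides in 300 bases, taken from a gene's richest entry, had a median of 18 in genes with a loop (range 0 to 38) and of 4 in genes without (range 1 to 17). More than 13 CpG, the median of all promoters, were found in 9 of 11 genes with a loop and 1 of 11 without. Ddx4 and Gpr3 had 38 each, whereas Khdc3 with 0 and Zp3 with 7 had loops at CpG-poor starts. The same difference ran through all protein-coding genes, with a median of 20 in 7207 genes with a loop and 9 in 10061 without, so it is not particular to oocyte genes. The 11 looped genes with a known strand had the 5′ end at an anchor in 10 cases and the 3′ end in 6, against 69.5% and 68.3% of all looped genes. The 3′ end alone was at an anchor in Ooep.

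Another 3 gene lists were counted in the same way. Of 50 further oocyte genes 13 had a loop (26.0%), below the 42.2% of all protein-coding genes. They numbered 5 and 9 in the hCG libraries and 10 and 6 in the PMSG libraries. They included Bmp6, Cd9 and Astl, and Ybx2, a germ cell RNA-binding protein, was the one gene at an hCG-only loop, spanning 275 kb, at 71 and 86 contacts where 21.8 and 25.8 were expected. None was at a PMSG-only loop. Of 30 spermatid genes, which neither oocyte nor granulosa cells are known for, 13 had a loop, as many as in the oocyte list. Among them Prm1, Prm2, Prm3 and Tnp2 shared a loop on chromosome 16, so the 13 are not all separate loci. Of the 13 spermatid genes 2, Oaz3 and Zpbp2, were at hCG-only loops (15.4%), against 8.31% of all genes with a loop. Of 20 granulosa genes 18 had a loop (90.0%), with 14 and 16 in the hCG libraries and 16 and 10 in the PMSG libraries. Of these, 5 were at hCG-only loops (Esr2, Gata4, Gja1, Inhba and Nr5a2) and 5 at PMSG-only loops (Gata4, Gja1, Inhba, Inhbb and Nppc). Gata4, Gja1 and Inhba were thus in both sets. Each set is 27.8% of the looped granulosa genes, against 8.31% and 5.46% of all genes with a loop. Among the 13 looped oocyte genes the counts were 0 and 1. Gja1 had 10 distinct loops, whereas no oocyte gene had more than 2, and a gene with more loops can enter a class more often. The lists were not tested against each other.

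**Figure D4:**
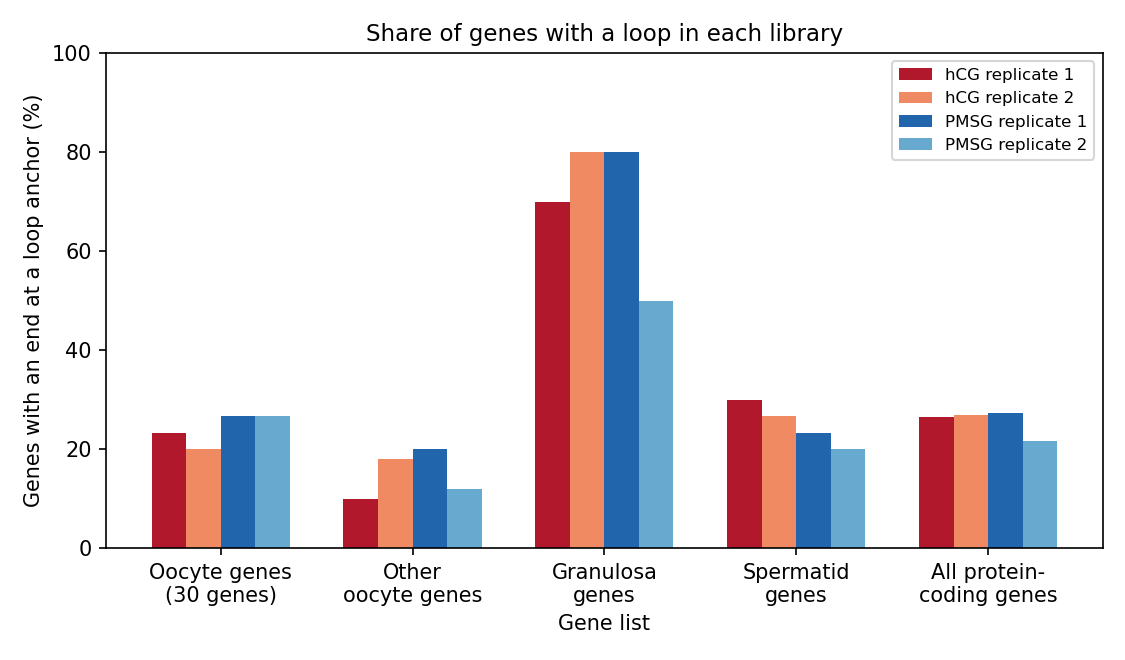
Share of genes with an end at a loop anchor, in percent, for 4 gene lists and for all protein-coding genes, with 1 bar for each hCG and PMSG library. The oocyte genes lie between 20% and 26.7%, near all protein-coding genes, and the granulosa genes between 50% and 80%.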

How the data were processed

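Micro-C libraries of granulosa cells were made with the Dovetail kit, 2 to 3 technical replicates per sample, per the labels' protocols. BWA and Juicer were used with mm10, per the submitters' processing notes, and juicer_tools 1.22.01 wrote the lists, per the file headers. No source used here gives the caller's settings. Each deposited list, 1 per library, holds loops in bins of 5, 10 and 25 kb. The observed contact count of a pixel is a raw whole number, per the file headers. The expected contact signal comes from 4 neighbourhoods, per the file headers. The FDR of each comparison is deposited as a q-value, all under 0.1. A deposited score, the number of collapsed pixels, was not used. Positions count from 1.

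Groups were taken from the sample titles. Genes were 21631 RefSeq protein-coding genes (GRCm38.p6) with 2 ends each. All 30 gene names matched. Matching loops of different lists formed 1 distinct loop, and a gene reached in 1 library was placed at it. A loop was hCG-only if in both hCG lists and no PMSG list, and PMSG-only in the reverse case. Loop strength was tested with edgeR 4.0.16 in R 4.3.3 on observed counts with the log of the donut expectation as offset. The loops were those of all 4 libraries with 1 bin size, without a further filter. Benjamini-Hochberg adjustment was over all loops tested. DESeq2 1.42.0 was an alternative. Matching and test were tried on simulated data. The simulated lists for matching had neither crowded loops nor mixed bin sizes, so they do not cover regions such as that of Khdc1a. Python 3.11.15, numpy 2.4.6, pandas 2.3.3, scipy 1.17.1 and matplotlib 3.10.9 did the rest. Same-numbered libraries did not deviate together (r = -0.00782 over 1366 loops), so the numbers were not taken as pairs. Contacts can include PCR copies, so intervals cover counting error only.

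The 30 genes and all lists were chosen with earlier results of these data known. All 30 are accounted for, genes with a loop in 2 or more libraries get values in every library where a loop was called, and the genes at the anchors of loops of all 4 libraries and of 1 group are named. Genes at other anchors, and those nearest to an anchor, were named after their values were seen. The alternatives were other match distances, anchor overlap, stricter and equal lists, other gene limits and leaving out each library.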

Additional observations from a re-analysis of the deposited data

How the results depend on the processing

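Of 124 recomputed values 102 stayed within the limits set and 22 moved. The limits were wide for differences between the groups. A change from -1.5 to -3 genes and a change from 2.5 to -40 kb in median span counted as unmoved. No difference between the groups was called with the settings used above, so no called result could change direction. The difference in median span, which had no test, was below 0 under 4 alternatives. The number of oocyte genes with a loop was 8 with a gene end in 2 libraries, where all protein-coding genes numbered 5514 in place of 9139. The difference per library was then 0, while leaving out 1 library gave 11 to 13 genes and differences of -2 to -1. That difference was -0.5 with a limit of 10 kb and with any part of the gene, and -3 at FDR 0.01 and with equal lists. Genes at loops of all 4 libraries numbered 4 with matching within 10 kb, with overlapping anchors, at FDR 0.01 and with lists of equal length, and 7 to 10 with 1 library left out. The share over all genes with a loop fell too, from 41.7% to 32.6%, 18.9%, 25.9% and 29.5% in the same order. With 1 library left out it was 45.6% to 50.4%. With the gene end inside the anchor 5 genes were at such loops, without Khdc3 and Gpr3, beside 38.4% of genes with a loop. Genes at PMSG-only loops numbered 2 at FDR 0.01 and with equal lists, and 1 to 3 with 1 library left out, where hCG-only loops held 0 to 2. The difference in median span was 2.5 kb, against 66.25 kb with equal lists, 75 kb with a gene end in 2 libraries, -17.5 kb with a limit of 10 kb, -1.25 kb with any part of the gene and -40 to 45 kb with 1 library left out (-40 without hCG replicate 1 and -5 without PMSG replicate 2). The difference in median ratio was 1.33, against 1.01 with a limit of 10 kb, 0.971 with any part of the gene, 0.770 with a gene end in 2 libraries and 1.03 to 1.64 with 1 library left out. Loops that differed in strength numbered 0, against 3 with the bottom-left expectation and 0 to 8 with 1 library left out, where the single library is assumed to vary like the others. With the replicate number as a block 0 loops were called and the block changed no call, with a log2 fold change of -0.45 at Tle6 and 0.17 at Dazl. The cause of these moves was not tested. Depth limits the single ratios, since the median called pixel held 32 to 36 contacts per library.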
